A study of Mus musculus with 24 samples.

Results

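The genes described here are 38 genes of skeletal muscle whose products build the sarcomere or carry the electrical signal that makes it contract. They were taken as a list of symbols by role: 11 genes of the thin filament, 7 of the thick filament, 5 of titin, the Z-disc and the desmin filaments, 5 of chaperones, protein turnover and energy supply, 4 of membrane excitation and calcium release, 4 of the acetylcholine receptor, and 2 that are a regulator and an adhesion molecule. A probe was annotated to 33 of the 38, and the probe was detected on at least 3 arrays for 30, of 12698 genes measured in all. Tnnt2, Myh3, Cacna1s, Mybph and Trim55 had no probe in the annotation used and were not analysed here. Neb, Ckm and Chrnd had probes that were detected on 0 arrays, so no level is given for them.

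RNA came from the mandibular prominence, the part of the first pharyngeal arch that forms the lower jaw, of single mouse embryos at embryonic days 10, 11, 12 and 13 (E10 to E13). At each stage 3 embryos of each of 2 genotypes were measured, p63-/- and p63+/-, each embryo on its own Illumina bead array, which makes 24 arrays in 8 groups of 3. p63-/- embryos carried the Trp63tm2Brd allele of the B6.129S7-Trp63tm2Brd/J strain on both chromosomes. p63+/- embryos carried it on 1, and C57BL6/J was the other strain used. The allele is a germline mutation present in every cell. All animals measured carried it, so each genotype difference below is against heterozygotes and not against wild type, and p63 (Trp63) itself is a transcription factor of stratified epithelia. The embryos of a group came from different litters, and at each stage p63+/- littermates of p63-/- embryos were taken.

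In a striated muscle fibre, myosin motors of the thick filament pull on actin of the thin filament. Troponin and tropomyosin hold the thin filament off until calcium binds troponin C. Acetylcholine from the nerve opens a receptor channel in the fibre's membrane, the membrane depolarises, and voltage sensors open ryanodine receptor channels that release calcium from the sarcoplasmic reticulum. Jaw muscles arise from cranial mesoderm that migrates into the first arch, where myoblasts withdraw from the cell cycle, fuse and begin to make these proteins. The myogenic factors that switch the genes on bind E-boxes, together with MEF2 and, at several actin and contractile genes, serum response factor, which binds the CArG box.

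The 250 bases before the gene start are shown for 6 of the measured genes, because these promoters hold such motifs and belong to genes whose changes are described below: both sarcomeric actins, the turnover gene Klhl41 and the 3 measured receptor subunits. The sequences are RefSeq's for build GRCm38.p6, are read 5′ to 3′ on the gene's own strand and end at the base before the gene start. Capitals mark the E-boxes CAGCTG and CACCTG (on the other strand CAGGTG), the MEF2 site and the CArG box, all searched on both strands. No 2 of the capital stretches overlap.
Acta1 (chr8:123894776-123895025, minus strand): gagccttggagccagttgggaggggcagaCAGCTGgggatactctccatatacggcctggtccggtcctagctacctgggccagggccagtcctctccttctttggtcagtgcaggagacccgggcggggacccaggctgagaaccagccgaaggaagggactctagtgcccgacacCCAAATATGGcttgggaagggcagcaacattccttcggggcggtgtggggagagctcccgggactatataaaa
Actc1 (chr2:114052876-114053125, minus strand): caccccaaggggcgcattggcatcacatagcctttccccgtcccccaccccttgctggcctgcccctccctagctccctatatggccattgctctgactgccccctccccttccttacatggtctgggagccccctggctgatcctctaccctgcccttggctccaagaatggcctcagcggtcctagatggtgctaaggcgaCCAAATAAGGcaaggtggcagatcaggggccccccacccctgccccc
Klhl41 (chr2:69669870-69670119, plus strand): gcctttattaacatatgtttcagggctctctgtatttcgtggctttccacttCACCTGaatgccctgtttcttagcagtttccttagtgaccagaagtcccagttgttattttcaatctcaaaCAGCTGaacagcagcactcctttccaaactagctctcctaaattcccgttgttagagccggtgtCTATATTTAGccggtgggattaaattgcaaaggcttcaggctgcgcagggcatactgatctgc
Chrna1 (chr2:73580339-73580588, minus strand): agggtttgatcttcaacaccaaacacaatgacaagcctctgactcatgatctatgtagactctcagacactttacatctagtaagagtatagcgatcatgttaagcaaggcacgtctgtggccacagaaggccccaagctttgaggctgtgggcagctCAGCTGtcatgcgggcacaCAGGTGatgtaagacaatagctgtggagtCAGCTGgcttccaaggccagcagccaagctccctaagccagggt
Chrng (chr1:87205561-87205810, plus strand): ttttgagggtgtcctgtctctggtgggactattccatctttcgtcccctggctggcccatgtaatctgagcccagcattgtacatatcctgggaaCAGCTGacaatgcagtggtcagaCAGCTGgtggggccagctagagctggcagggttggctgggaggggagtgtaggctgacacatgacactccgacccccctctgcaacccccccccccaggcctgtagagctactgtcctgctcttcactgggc
Chrnb1 (chr11:69795938-69796187, minus strand): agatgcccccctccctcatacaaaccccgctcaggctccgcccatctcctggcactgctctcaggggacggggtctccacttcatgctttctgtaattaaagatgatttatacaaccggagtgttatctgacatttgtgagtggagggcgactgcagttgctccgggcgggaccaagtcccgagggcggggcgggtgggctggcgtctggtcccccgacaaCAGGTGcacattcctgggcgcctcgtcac
The Acta1 window holds an E-box CAGCTG starting at -221 and a CArG box at -73, and that of Actc1 a CArG box at -47, counted from the gene start. Klhl41 has CACCTG at -198, CAGCTG at -127 and a MEF2 site at -63. Chrna1 has CAGCTG at -92 and at -44 and CACCTG at -73. Chrng has CAGCTG at -155 and at -132, and the window of Chrnb1 holds 1 CACCTG, at -29. A promoter window was listed for 27 of the 30 measured genes, 32 windows in all since some genes have several starts. CAGCTG was present in 11 of these 32 windows (34.4%), against 13% of 32841 promoter windows of the same length. CACCTG was in 9 (28.1%, against 17.2%), a MEF2 site in 5 (15.6%, against 2.92%) and a CArG box in 4 (12.5%, against 1.47%). At least 1 of the 4 motifs was present in 22 of the 32 windows (68.8%), against 31.1% of all windows. Windows are not independent: Tnni1 and Ldb3 each have 2 overlapping windows that share a site, so CAGCTG belongs to 10 of the 27 genes, the CArG box to 3 and any of the motifs to 20. A match is a run of letters and does not show that a factor binds there.

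Arrays detected between 43.35% and 48.98% of the probes. Values below are normalized log2 intensities, a level is that of 1 probe (the gene's brightest), and levels of different genes are not compared because probes differ in efficiency. The Trp63 probe ranged from 8.97 to 9.89 in the 12 p63-/- embryos, below its range of 10.19 to 11.32 in the 12 heterozygotes. Each stage lay on a slide of its own, so stage and slide cannot be told apart, whereas the genotypes were compared within slides. On the E11, E12 and E13 slides the p63-/- arrays held positions 1 to 3 and the p63+/- arrays positions 4 to 6. Genotype and position cannot be told apart at those stages, and only the E10 slide mixed them. E10 p63-/- replicate 3 stood apart from the other E10 arrays: Afp, a yolk sac and fetal liver gene, was at 13.77 on it against 4.94 to 8.33 on the others. Several counts of genes called and the Chrnb1 results are given with and without this array. Most other p63-/- values that use it are given only with it. After E10 the highest Afp values were 9.56 on E11 p63+/- replicate 2 and 8.87 on E12 p63-/- replicate 3. How Afp goes with the muscle gene levels of single arrays was not tested. RNA of a whole prominence mixes many cell types, so more muscle cells and more RNA per muscle cell cannot be told apart in anything below.

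Between E10 and E13 the sarcomere and excitation genes rose together in both genotypes. In p63+/- embryos 27 of the 30 measured genes were higher at E13 than at E10 past an adjusted p of 0.05 (limma, Benjamini-Hochberg over all genes), against 25.3% of all genes tested. In p63-/- embryos 27 passed, against 27.4% of all genes, and they were the same 27. Their number was also 27 when E10 p63-/- replicate 3 was left out. The median change over the 30 genes was 4.37 on the log2 scale in p63+/- and 3.88 in p63-/-, whereas the median over all genes was -0.05 and -0.04. These medians were the same to 2 decimals with undetected genes set at the bound described below. Of the 30 genes, 7 were detected on no E10 array and passed the detection filter only through later stages, so their rise is partly set by that filter. Tnnt3, Ttn and Unc45b were detected on 2 E10 arrays each and also needed later stages to pass. Among the 20 genes that the E10 arrays alone would have passed, 17 were higher at E13 in each genotype, against 23.7% of such genes in p63+/- and 26.3% in p63-/-. The 3 genes outside the 27 were Ldb3, which fell in both genotypes, and Myh7 and Smyd1, for which neither genotype passed. The E10 and E13 groups did not overlap for 27 of the 30 genes in the higher direction in p63+/-, against 31.2% of all genes, and for 27 in p63-/-, against 27.3%.

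**Figure D1:**
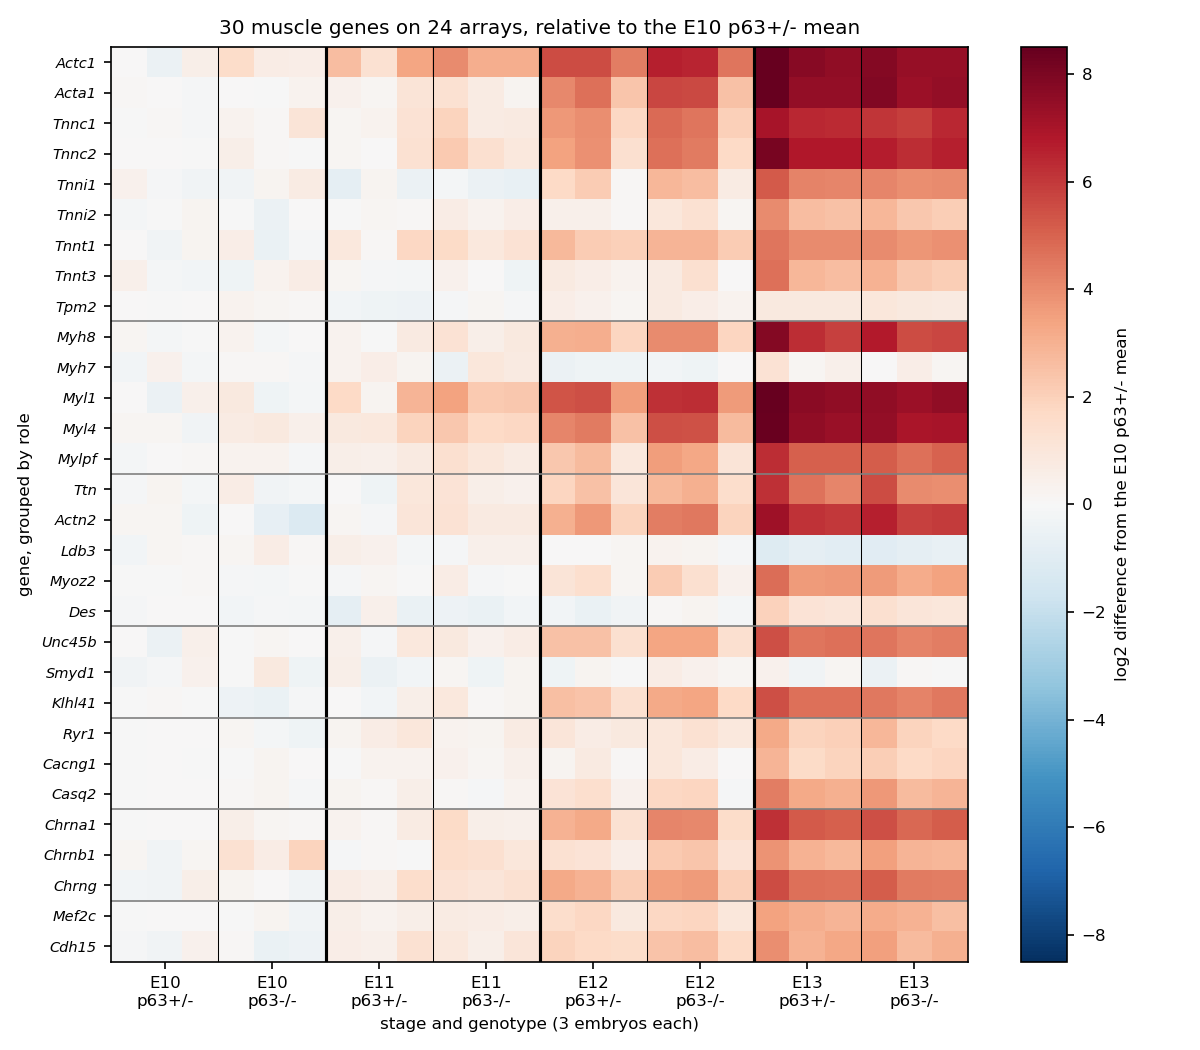
Level of each of the 30 measured genes (rows, grouped by role) on each of the 24 arrays (columns, grouped by stage and genotype), as the log2 difference from the gene's mean over the 3 E10 p63+/- arrays. Most rows turn to higher values from E10 to E13 in both genotypes, while Ldb3, Smyd1 and Myh7 do not, and the third embryo of each genotype at E12 is lower than the other two in most rows.

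The 9 measured thin filament genes all rose from E10 to E13 in both genotypes. Actc1, the cardiac alpha-actin that embryonic skeletal muscle also uses, was at 6.16, 5.62 and 6.66 in the E10 p63+/- embryos and at 14.62, 13.89 and 13.68 in those of E13. In p63-/- it was at 7.68, 6.75 and 6.69 at E10 and at 13.98, 13.57 and 13.58 at E13. No E10 embryo overlapped an E13 embryo of its genotype. The rise was 7.92 (SE 0.54, 242-fold, adjusted p = 3.73e-08 in limma) in p63+/- and 6.67 (102-fold, adjusted p = 3.44e-08) in p63-/-.

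Acta1, the skeletal alpha-actin of mature fibres, was not detected on any E10 array. It was at 4.72, 4.67 and 4.56 in E10 p63+/- embryos and at 13.53, 12.14 and 12.09 at E13, and in p63-/- it went from 4.65, 4.60 and 4.96 to 12.55, 11.95 and 12.11. The E13 values are far above every E10 value in both genotypes. Against the lowest detectable signal, Acta1 was at least 127-fold higher at E13 in p63+/- (adjusted p = 7.41e-08) and at least 96.2-fold higher in p63-/- (adjusted p = 6.58e-08). This way of bounding a fold is used wherever "at least" is written below. Such bounds hold for the normalization used here and not for other processing. Over the alternatives described at the end, the unbounded log2 difference in p63+/- was as low as 4.71 for Acta1 and 0.48 for Cacng1.

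Troponin has a calcium-binding (C), an inhibitory (I) and a tropomyosin-binding (T) subunit, each with a slow and a fast isoform gene. Among the slow isoforms, Tnnc1 rose by 6.57 in p63+/- (SE 0.60, 94.7-fold, adjusted p = 1.3e-07), from 6.90 ± 0.10 to 13.47 ± 0.36 (SD, n = 3). Tnnt1 went from 9.08 ± 0.26 to 13.29 ± 0.31, an 18.5-fold rise, and Tnni1 from 5.59 ± 0.33 to 10.11 ± 0.60, a 22.9-fold rise. All 3 also rose in p63-/-, by 5.62, 3.92 and 3.84.

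Of the fast isoforms, Tnnc2 was detected on none of the 3 E10 p63+/- arrays, where it was at 4.62, 4.60 and 4.53, and was at 12.62, 11.37 and 11.38 at E13, at least 73.0-fold higher (adjusted p = 1.34e-07). Tnnt3 was at 5.76, 5.20 and 5.11 at E10, still at 6.10, 5.90 and 5.66 at E12, and at 10.01, 8.21 and 8.01 at E13 in p63+/-. Its E12 values thus lay close to those of E10, and only the E13 embryos stood clear of both.

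For Tnnt3 the change from E10 to E13 was 3.39 (SE 0.42, adjusted p = 2.67e-06) in p63+/- and 2.26 (adjusted p = 0.000146) in p63-/-. Tnni2 followed a like course in p63+/-, with means of 7.36 at E10, 7.45 at E11, 7.69 at E12 and 10.41 at E13. It rose 8.30-fold in p63+/- and 5.85-fold in p63-/-. Beta-tropomyosin, Tpm2, was at 9.94, 9.87 and 9.93 at E10 and at 10.76, 10.72 and 10.71 at E13 in p63+/-. These 3 against 3 values do not overlap, and the rise of 0.82 (SE 0.12, 1.77-fold, adjusted p = 1.33e-05) is the smallest of the 27 in p63+/-. Tpm2 is also made by other cells, and its probes disagreed in size: a second, dimmer probe changed by 4.63 and the third by 0.94 in p63+/-.

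**Figure D2:**
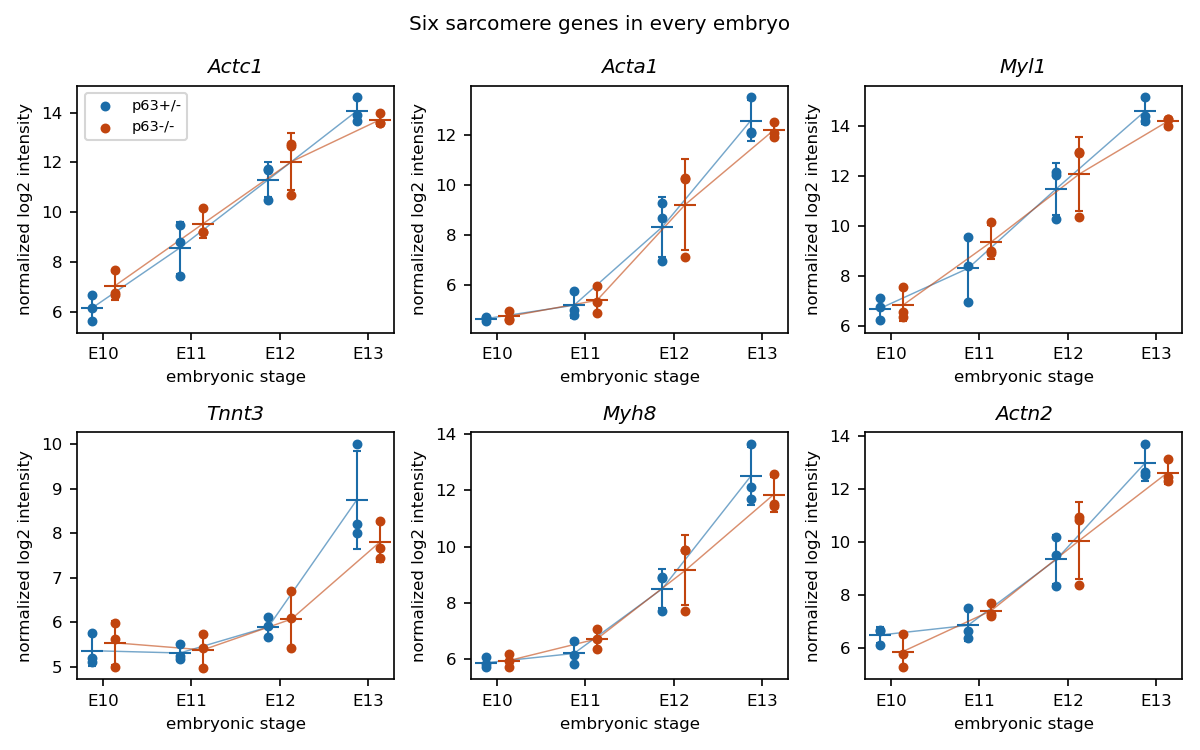
Log2 level of Actc1, Acta1, Myl1, Tnnt3, Myh8 and Actn2 in each embryo (points) at E10 to E13, with the mean of each group of 3 (bar) and its SD. The group means of Actc1 and Myl1 are above those of E10 from E11 on. Those of Acta1, Myh8 and Actn2 lie well above E10 from E12 on in both genotypes, and that of Tnnt3 at E13. In p63-/- the E11 means of Actn2 (7.42 against 5.88 at E10) and Myh8 (6.72 against 5.95) are already higher.

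Of the 5 measured thick filament genes, 4 rose in both genotypes. Myl1, an alkali light chain of fast and embryonic myosin, was at 6.76, 6.23 and 7.11 in E10 p63+/- embryos, at 12.03, 12.15 and 10.28 at E12 and at 15.14, 14.37 and 14.20 at E13. In p63-/- the same 3 stages gave 7.56, 6.37 and 6.56, then 12.90, 12.97 and 10.35, then 14.27, 14.00 and 14.26. The stages did not overlap within a genotype. From E10 to E13 Myl1 rose 234-fold in p63+/- (7.87, SE 0.67, adjusted p = 8.39e-08) and 163-fold in p63-/- (adjusted p = 8.65e-08).

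Myl4, the light chain of embryonic muscle and atrium, rose from 5.70 ± 0.29 to 13.44 ± 0.58 in p63+/- (214-fold, adjusted p = 4.02e-08) and 91.1-fold in p63-/-. Mylpf, the regulatory light chain of fast fibres, rose 44.4-fold in p63+/- and 27.7-fold in p63-/-. Myh8, the perinatal myosin heavy chain, was at 6.07, 5.71 and 5.83 at E10 and at 13.65, 12.13 and 11.70 at E13 in p63+/-, against 6.18, 5.73 and 5.92 and then 12.58, 11.43 and 11.53 in p63-/-. The first E13 embryo was the highest in each genotype, and no E13 value came near those of E10. The change was 6.62 (SE 0.52, 98.6-fold, adjusted p = 5.53e-08) and 5.90 (59.7-fold, adjusted p = 6.69e-08).

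Myh7, the heavy chain of slow fibres and cardiac ventricle, was the thick filament gene that did not pass. It was at 5.37, 5.98 and 5.41 at E10 and at 6.78, 5.77 and 5.99 at E13 in p63+/-. The groups overlap, the difference was 0.60 (95% interval -0.01 to 1.20, adjusted p = 0.089 in limma), and in p63-/- it was 0.22 (adjusted p = 0.525). Myh7 was below detection on all 3 E12 p63+/- arrays, and from E12 to E13 it rose by at least 1.62-fold there (adjusted p = 0.0234).

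Among titin, the Z-disc and the intermediate filaments, 4 of 5 genes rose and 1 fell. Actn2, the alpha-actinin that crosslinks actin at the Z-disc, was at 6.66, 6.70 and 6.14 at E10 and at 13.72, 12.66 and 12.54 at E13 in p63+/-, and went from 6.53, 5.79 and 5.31 to 13.13, 12.30 and 12.46 in p63-/-. The stages are well apart in both genotypes. Actn2 rose 88.9-fold (6.47, SE 0.56, adjusted p = 9.41e-08) and 108-fold (6.75, adjusted p = 4.27e-08), while the third, dim probe, detected on 3 arrays, differed by 0.39 in p63+/- and did not pass.

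Titin, Ttn, the elastic protein that spans the sarcomere from Z-disc to M-line, rose 31.7-fold in p63+/- and 22.3-fold in p63-/-. Of its 12 probes 3 passed the detection filter, and their differences in p63+/- were 4.99, 2.77 and -0.08, the last of a probe detected on 3 arrays that did not pass. Myoz2, a Z-disc protein that binds calcineurin, was below detection at E10 and at least 8.52-fold higher at E13 in p63+/- and at least 5.53-fold higher in p63-/-. Des, the desmin of intermediate filaments, was present from the start at 9.04, 9.15 and 9.18 and reached 11.11, 10.27 and 10.18 at E13 in p63+/-, with means of 8.82 at E11 and 8.75 at E12. Its rise was 1.40 (SE 0.24, 2.63-fold, adjusted p = 0.000102) in p63+/- and 1.30 in p63-/-.

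Ldb3, which encodes the PDZ and LIM protein that stabilises the Z-disc, went the other way. It was at 6.72, 7.16 and 7.06 at E10 and at 5.91, 6.21 and 6.10 at E13 in p63+/-, and at 7.17, 7.60 and 7.09 and then 6.05, 6.20 and 6.33 in p63-/-. Every E13 embryo was below every E10 embryo of its genotype. Ldb3 fell by 0.91 (SE 0.19, 1.88-fold lower, adjusted p = 0.000424) and fell by 1.09 (2.13-fold lower, adjusted p = 6.5e-05), against 28.0% and 28.5% of all genes called lower. Its second probe, detected on 7 arrays, differed by 0.10 (SE 0.21) in p63+/- and by -0.07 in p63-/- and passed in neither.

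Of the 3 measured genes of chaperones and turnover, 2 rose. Unc45b, the myosin chaperone, rose 29.5-fold in p63+/- (4.88, SE 0.43, adjusted p = 1.03e-07), from 5.56, 5.02 and 5.92 to 10.98, 10.02 and 10.15, and at least 18.9-fold in p63-/-. Klhl41, a kelch protein of the sarcomere that serves in protein turnover, was below detection at E10 and at least 30.4-fold higher at E13 in p63+/- (adjusted p = 4.02e-08) and at least 20.4-fold higher in p63-/-. Smyd1, a methyltransferase that works with the myosin chaperones, was at 6.04, 6.29 and 6.74 at E10 and at 6.75, 6.03 and 6.51 at E13 in p63+/-. These values overlap, with a difference of 0.07 (95% interval -0.56 to 0.71, adjusted p = 0.86). In p63-/- the difference was -0.28 (adjusted p = 0.451).

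All 3 measured genes of excitation and calcium release rose in both genotypes. Ryr1, the calcium release channel of the sarcoplasmic reticulum, was at 6.53, 6.65 and 6.60 at E10 and at 9.78, 8.48 and 8.59 at E13 in p63+/-. The rise was 5.12-fold (2.36, SE 0.30, adjusted p = 3.82e-06), and 4.82-fold in p63-/-. Of its 4 probes past the filter, the others differed by 2.90, 2.65 and 0.18 in p63+/-, the last not passing. Casq2, a calsequestrin that stores calcium, was below detection at E10 and at least 6.99-fold higher at E13 in p63+/- and at least 5.08-fold higher in p63-/-. Cacng1, the gamma subunit of the muscle L-type calcium channel, was likewise undetected at E10 and at least 2.55-fold and 2.08-fold higher. Casq2, Cacng1 and Myoz2 were detected on 0 arrays of E10 and E11, so they entered the test only through the later stages in which they are high.

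The receptor of the neuromuscular junction is built from alpha, beta, delta and, in the embryo, gamma subunits. Chrna1, the acetylcholine-binding alpha subunit, was at 4.79, 4.88 and 4.90 at E10, below detection, and at 11.06, 10.09 and 9.93 at E13 in p63+/-. It was at least 27.1-fold higher at E13 (adjusted p = 3.68e-07) and at least 20.9-fold higher in p63-/-. Chrng, the gamma subunit that marks the fetal form of the receptor, was at 5.64, 5.51 and 6.37 and then at 11.40, 10.49 and 10.43 in p63+/-. No E13 embryo was near an E10 embryo, and Chrng rose 30.6-fold (adjusted p = 7.05e-08) and 24.9-fold in p63-/-. Its second, dimmer probe, detected on 3 arrays, rose by only 0.96 in p63+/- and by 0.66 in p63-/-. It passed in both (limma, adjusted p over all probes = 0.000805 and 0.0121). Chrnb1, the beta subunit, rose 9.01-fold in p63+/- (3.17, SE 0.34, adjusted p = 7.4e-07) and 3.43-fold in p63-/- (1.78, adjusted p = 0.00023, or 2.09 without E10 p63-/- replicate 3), and is described further with the genotypes.

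Mef2c, a MADS-box factor that works with the myogenic factors and is also made by neural crest and endothelium, was at 7.86, 7.93 and 7.90 at E10 and at 11.29, 10.97 and 10.78 at E13 in p63+/-. All E13 values exceed all E10 values, and the rise was 8.65-fold (3.11, SE 0.23, adjusted p = 4.02e-08) in p63+/- and 7.72-fold in p63-/-. Cdh15, the M-cadherin with which myoblasts adhere, rose 10.4-fold and 10.5-fold.

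The number of genes detected grew with stage. Detection depends on each probe's efficiency, so no order of onset is read between genes. An array detected 18 to 21 of the 30 genes at E10, 20 to 26 at E11, 26 to 29 at E12 and 30 at E13. The genes detected on 0 of the 6 E10 arrays were Acta1, Tnnc2, Casq2, Cacng1, Chrna1, Klhl41 and Myoz2.

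From E10 to E11 in p63+/- only Actc1 passed the test among the 30 genes, against 0.772% of all genes called higher. It was at 8.80, 7.45 and 9.48 at E11, above every E10 value, and rose by 2.43 (SE 0.54, adjusted p = 0.0309 in limma). This call was lost without E10 p63+/- replicate 1 or 2 or E11 p63+/- replicate 1 or 3, by quantile normalization without background correction and in the authors' values, where the count was 0. In p63-/- the same day gave 4 genes, against 4.20% of all genes: Myl1 (2.52, adjusted p = 0.0324), Actc1 (2.50, adjusted p = 0.0116), Tnnt1 (1.28) and Cdh15 (1.11). Without E10 p63-/- replicate 3 the number in p63-/- was 1, and leaving out each array in turn gave 0 to 6, with 0 without E11 p63-/- replicate 1.

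From E11 to E12 the number was 17 in p63+/- (5.25% of all genes) and 20 in p63-/- (7.43%). Myl1 had the largest rise in p63+/-, 3.18 (adjusted p = 0.0098), and was followed by Actc1 (2.74), Tnnc1 (2.57) and Actn2 (2.48). In p63-/- the largest rises of detected genes were those of Myl1 (2.72), Actn2 (2.65), Tnnc1 (2.64) and Myl4 (2.61). Acta1 also rose in both genotypes but was detected on 1 of 3 E11 arrays in each, and against the lowest detectable signal at E11 its rise on the log2 scale was at least 2.65 in p63+/- and 3.45 in p63-/-. The 3 excitation and calcium release genes passed in neither genotype on this day, with changes of 0.19 to 0.70 in p63+/- and 0.23 to 1.08 in p63-/-. These counts depended on single arrays: leaving out E12 p63+/- replicate 2 gave a count of 2 in p63+/-, and leaving out E12 p63-/- replicate 2 gave 5 in p63-/-.

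From E12 to E13, 28 of the 30 genes rose in p63+/- (9.69% of all genes) and 25 in p63-/- (9.66%), and Ldb3 was the 1 gene called lower in each (8.88% and 8.80%). The count in p63-/- was 12 without E12 p63-/- replicate 3 and 15 without E13 p63-/- replicate 1. The largest rises in p63+/- were those of Tnnc2 (4.31), Acta1 (4.26), Myl4 (4.05), Myh8 (3.99) and Actn2 (3.62). In p63-/- they were those of Acta1 (2.98), Tnnc2 (2.91), Myh8 (2.69), Myl4 (2.62) and Actn2 (2.56). The median over the 30 genes was 0.36, 1.40 and 2.77 on the 3 successive days in p63+/- and 0.62, 1.54 and 1.68 in p63-/-, with medians over all genes between -0.03 and 0.02. The largest of a gene's 3 daily differences lay between E12 and E13 for 27 genes in p63+/- and for 15 in p63-/-, where 13 had it between E11 and E12. That contrast between genotypes was not tested as a count. Group means were higher at each later stage for 22 of the 30 genes in each genotype. No share of all genes is given for these counts of largest differences and of rising means. They describe the 30 genes only and are not read against other genes.

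**Figure D3:**
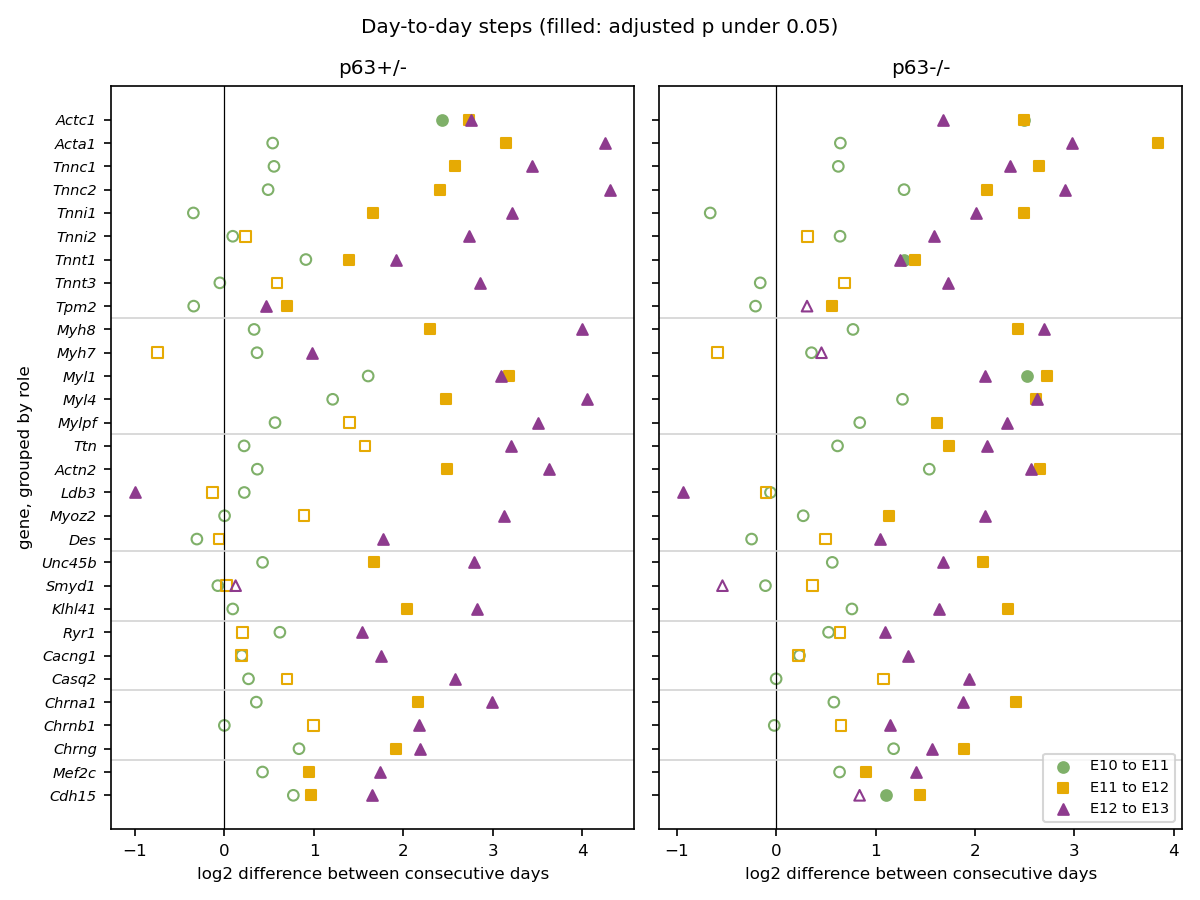
Log2 difference from 1 day to the next for each of the 30 genes, in p63+/- and p63-/- embryos; filled points have an adjusted p under 0.05. Filled points with a rise number 1 and 4 from E10 to E11, 17 and 20 from E11 to E12, and 28 and 25 from E12 to E13 (p63+/- and p63-/-).

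Embryos of 1 group had larger SDs in these genes than in most genes. At E12 the median SD over the 30 genes was 0.90 in p63-/- and 0.63 in p63+/-, against 0.16 and 0.15 over all genes. Acta1 shows this spread: its E12 values were 10.29, 10.27 and 7.12 in p63-/- and 8.71, 9.30 and 6.98 in p63+/-. The third embryo was low in both genotypes.

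E12 p63-/- replicate 3 had the lowest value of its group for 29 of the 30 genes (34.3% of all genes), and E12 p63+/- replicate 3 for 25 (36.8%). The median level over the 30 genes was 9.22, 9.19 and 7.52 on the E12 p63-/- arrays and 8.43, 8.49 and 7.46 on the E12 p63+/- arrays, the third array being the low one in each genotype. At E13 replicate 1 had the highest value for 26 genes in p63-/- (35.1% of all genes) and for 29 in p63+/- (31.9%). The array medians there were 10.65, 9.97 and 10.08 and, in p63+/-, 11.19, 10.26 and 10.18.

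The genotypes were compared at each stage, on average over the 4 stages and as a difference of the stage courses. Except at E10, genotype coincided with position on the slide, as described above. At E10, E11, E12 and E13 the number of the 30 genes past the threshold in limma was 0 each time, against 0.795%, 0.512%, 0.299% and 0.307% of all genes. An unadjusted p under 0.05 was seen for 1, 2, 1 and 1 of the 30 genes. No share of all genes is given for that unadjusted cut. Leaving out E10 p63-/- replicate 3 also gave 0 at E10. With the replicate number as a block the count was 1 at E10, E11 and E12 and 0 at E13, the gene being Chrnb1. Of all 12698 genes, 205, 97, 49 and 46 passed in that fit at the 4 stages. The median difference, p63-/- minus p63+/-, was 0.08 at E10, 0.32 at E11, 0.55 at E12 and -0.37 at E13, and the number of positive differences was 20, 26, 30 and 2 of 30. Over all genes the medians were near 0, and 45.1%, 49.5%, 48.8% and 50.3% of the differences were positive. The 30 genes vary together between the embryos of a group, as described above, so their shared sign at a stage has the weight of 3 embryos against 3 and not of 30 genes.

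At E10, Actc1 differed by 0.89 (SE 0.54, adjusted p = 0.475) and Ldb3 by 0.30 (adjusted p = 0.483). At E11 Tpm2 differed by 0.33 (SE 0.12, adjusted p = 0.547). At E12 the values nearest to the threshold after that of Chrnb1 were those of Des (0.44, SE 0.24) and Cdh15 (0.51, SE 0.30), both with an adjusted p of 1. At E13 they were those of Tnnt3 (-0.95, SE 0.42, unadjusted p = 0.0343), Tnni2 (-0.65) and Myoz2 (-0.61), all with an adjusted p of 1. None of these passed the test. The genotypes' values did not overlap for 5 genes in the higher direction at E10 (6.82% of all genes), 4 at E11 (5.13%) and 1 at E12 (3.43%), and for 3 in the lower direction at E10 (11.4%) and at E13 (3.97%).

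**Figure D4:**
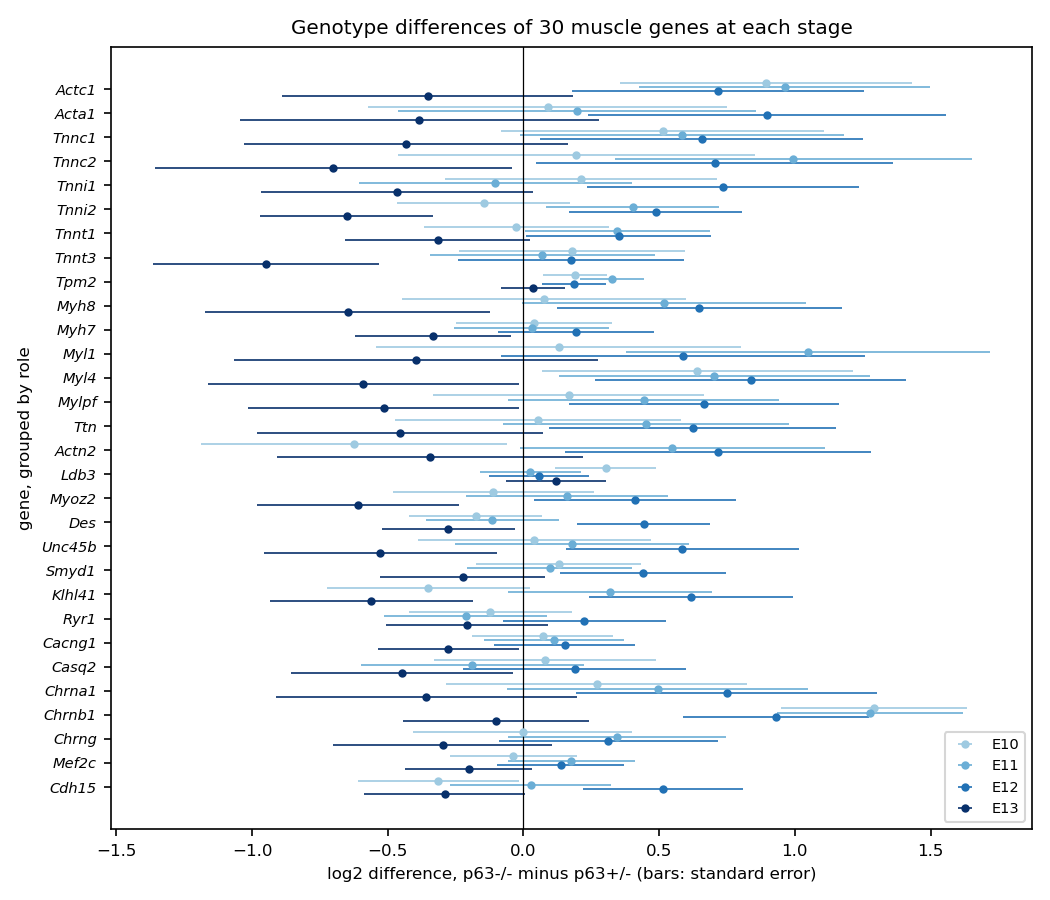
Difference p63-/- minus p63+/- on the log2 scale, with its SE, for each of the 30 genes at the 4 stages. All 30 points lie above 0 at E12 and 28 lie below 0 at E13, with SEs that cross 0 for many of them; no point has an adjusted p under 0.05 without the replicate block.

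On average over the 4 stages 1 of the 30 genes passed, Chrnb1, against 2.35% of all genes in either direction and 1.35% in the higher direction. At E10 Chrnb1 was at 8.76, 8.09 and 9.37 in p63-/- and at 7.59, 7.13 and 7.62 in p63+/-. At E11 it was at 8.93, 8.83 and 8.40 against 7.36, 7.55 and 7.42. At both stages every p63-/- embryo was above every p63+/- embryo.

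At E12 the values were 9.70, 9.80 and 8.61 in p63-/- and 8.73, 8.59 and 8.00 in p63+/-, and at E13 they were 10.92, 10.33 and 10.30 against 11.28, 10.40 and 10.17. The genotypes overlap at both of these stages, although at E12 each p63-/- embryo was above the p63+/- embryo of the same number. The difference was 1.29 at E10 (SE 0.34, adjusted p = 0.0866), 1.28 at E11 (adjusted p = 0.148), 0.93 at E12 (adjusted p = 0.928) and -0.10 at E13, and the average was 0.85 (SE 0.17, 95% interval 0.49 to 1.21, 1.80-fold, adjusted p = 0.00712). Without E10 p63-/- replicate 3, its highest E10 value, the difference was 0.97 at E10 (adjusted p = 0.232) and 0.77 on average (adjusted p = 0.011). With the replicate number as a block Chrnb1 passed at E10, E11 and E12 (adjusted p = 0.00343, 0.00524 and 0.046) and on average (0.000194). The same-numbered pairs' deviations correlated at 0.285 to 0.427 at E12, whereas at E10 and E11 some pairs correlated at under 0.1. In the authors' own normalized values it was 0.47 and did not pass (adjusted p = 0.0545).

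A second Chrnb1 probe differed between the genotypes by 1.15, 0.96, 0.92 and -0.20 at the 4 stages, with an average of 0.71 (SE 0.14, adjusted p over all probes = 0.00981). Both probes thus gave the same signs and like sizes. The other 2 measured receptor subunits did not pass on average. Chrnb1 changed from E10 to E13 by 1.39 less in p63-/- than in p63+/- (-1.39, SE 0.48, unadjusted p = 0.0096, adjusted p = 0.701), and 0 of the 30 genes passed that test of the difference (0.0709% of all genes). The interaction of genotype with all 4 stages also gave 0 (0.0158%), with an unadjusted p of 0.0307 for Chrnb1. Among the 5 genes on either side of Chrnb1 on its chromosome, only Tmem102 was measured, 2 places away, and it was higher in p63-/- by 0.51 on average (SE 0.10, adjusted p = 0.00604). Tmem102 was chosen after its values were seen.

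**Figure D5:**
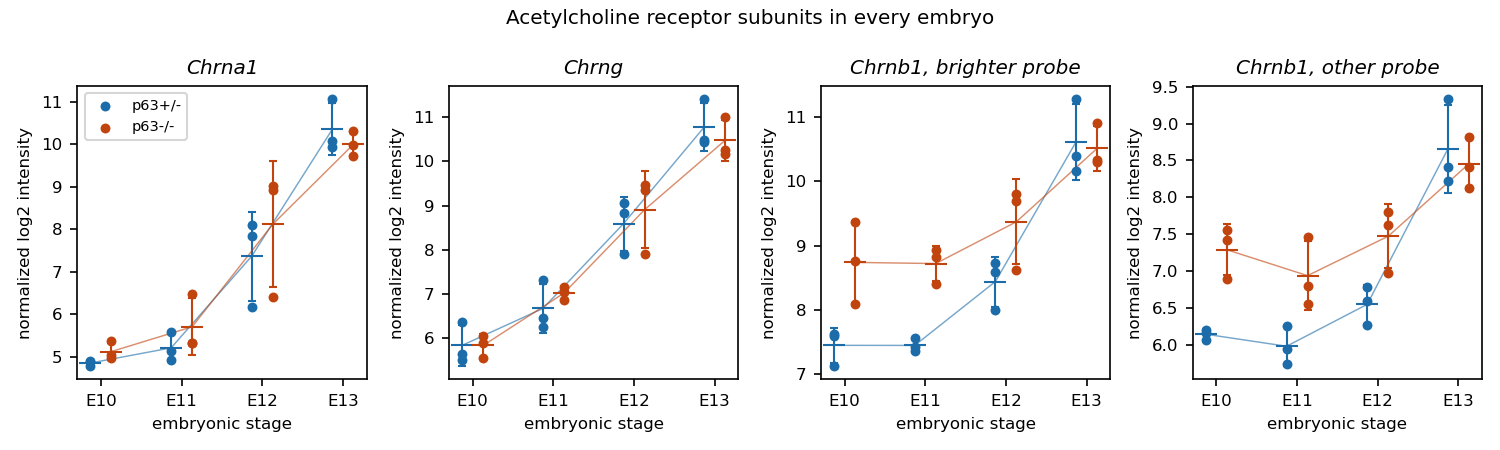
Log2 level of Chrna1, Chrng and both Chrnb1 probes in each embryo (points) by stage and genotype, with the mean of each group of 3 and its SD. Both Chrnb1 probes are higher in p63-/- at E10 and E11 and meet the p63+/- values at E13, while the Chrna1 and Chrng values of the genotypes overlap at most stages.

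Averaged over the stages, Tpm2 differed by 0.18 (SE 0.06, adjusted p = 0.16) and Actc1 by 0.55 (SE 0.27, adjusted p = 0.505), and neither passed. The change from E10 to E13 differed between genotypes by -1.25 for Actc1 and by -1.13 for Tnnt3, and neither passed.

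Other muscle genes, listed by role, are read against the 25.3% of all genes called higher and 28.0% called lower in p63+/-, and 27.4% and 28.5% in p63-/-. Many list genes, among them Myom2, Myom3, Mybpc1, Sln and Cox6a2, were undetected on the E10 p63+/- arrays. Such genes could pass the detection filter through later stages, so the counts of rises are partly set by that filter. Of the 22 measured among 34 other sarcomere genes, 19 were higher at E13 than at E10 in p63+/- and 1 lower, with a median of 1.94, and in p63-/- 18 were higher and 1 lower. Csrp3, a LIM protein of the Z-disc, rose by 4.88, and the M-band genes Myom3 and Myom2 were at least 10.1-fold and 6.59-fold higher. The slow myosin-binding protein Mybpc1 was at least 7.75-fold higher, whereas Tpm3, a tropomyosin that many cells make, fell by 0.44. Of 19 measured among 28 other excitation and calcium genes, 12 rose and 0 fell in p63+/- and 12 rose and 1 fell in p63-/-. They were led by Sln, the small inhibitor of the calcium pump (at least 42.4-fold), and Atp2a1, the fast fibre calcium pump itself (5.80). Rapsn, which clusters acetylcholine receptors, rose by 2.75.

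Of 17 measured among 22 genes of myoblast fusion, turnover and energy, 13 rose and 1 fell in p63+/-, and 9 rose and 1 fell in p63-/-. Cox6a2, a muscle subunit of cytochrome oxidase, was at least 19.3-fold higher and the muscle kinase Srpk3 at least 10.7-fold higher, and Eno3, the muscle enolase, fell by 1.71. Of 11 measured among 18 myogenic regulators 7 rose and 3 fell in p63+/-, and 6 and 3 in p63-/-, the falls being near the share of all genes. Myog and Myod1, the factors of myoblast differentiation and commitment, were at least 21.0-fold and 14.3-fold higher in p63+/-. Msc, a factor of jaw muscle precursors, rose by 3.20 there. The 3 that fell were Six4 (by 1.69), Tcf21 (by 1.23) and Eya1 (by 1.07). Between genotypes, on average over the stages, Cryab (0.88, adjusted p = 0.000869), Tpm1 (0.23, adjusted p = 0.00788) and Jph1 (0.38, adjusted p = 0.00712) were higher in p63-/- and no other gene of these 4 lists passed. Of all genes, 1.35% were called higher in that comparison and 2.35% in either direction.

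Markers of other cell types are read against the same shares of all genes, and with the same limit for genes undetected at E10. Of 8 smooth muscle genes 5 were measured and 3 rose in p63+/- and in p63-/-. Acta2, the smooth muscle actin that early skeletal muscle also makes, rose by 5.52 in p63+/-. The log2 summed level of the list went from between 10.38 and 10.54 at E10 to between 14.28 and 14.81 at E13 there. At E13 that sum was mostly Acta2, with a mean of 14.37. The median change of the list was 0.92 in p63+/-, where Tagln and Myocd did not pass. Of 12 cardiac genes 3 were measured (Myh6, Nkx2-5 and Ryr2), all undetected on the E10 p63+/- arrays. All 3 were higher at E13 in p63+/-, with a list level of 6.62 to 6.87 at E10 and 7.41 to 8.21 at E13, and 2 in p63-/-. Of 6 tendon genes 4 were measured and 3 rose in each genotype, Egr1 by 3.51, Mkx by 1.85 and Scx by 1.04. The mandibular mesenchyme list was detected on all E10 arrays, and of its 10 genes 6 fell and 1 rose in p63+/-, Hand1 falling by 3.13, with a list level of 14.27 to 14.40 at E10 and 13.71 to 14.25 at E13. In p63-/- 2 fell and 2 rose, near the shares of all genes. The part of these other cells in the rise of Actc1, Myl4, Tnnc1 and Casq2, which heart also makes, was not tested.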

How the data were processed

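Single-colour Illumina bead arrays of 24 embryos were used, grouped by the sample labels. Per the file headers, the deposited table of 45281 probes pairs every array's intensity with a detection p-value. These intensities (64.3 to 66200) are on a linear scale and not scaled between arrays, and the detection p-value moves in steps of 1 in 936. The authors' processed table is on a log2 scale (array medians 7.92 to 7.93) and was used as an alternative, and the order of its steps is unknown. BeadStudio, lumi and RMA are named, without versions, per the submitters' processing notes.

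Intensities were normalized with limma's neqc (offset 16, limma 3.58.1, R 4.3.3). Probes with a detection p under 0.05 on 3 arrays or more were kept (24233), and each gene was read from its brightest probe. The annotation gave 34885 probes 1 gene, 18 several and 10378 none. Each gene was fitted in limma with 8 group means (16 residual degrees of freedom, 2.96 prior) and p-values were adjusted over 12698 genes by Benjamini-Hochberg at 0.05. The limma fits were tested on simulated data, with noise drawn separately for each gene. The normalization, detection filter, probe choice and bound were not tested in this way. A gene undetected in a group was bounded: its own signal, or the lowest signal detected on that array if higher, was averaged and set against the bright group's mean. With 3 arrays a group, the number of arrays limits precision, and background compresses the change of dim genes.

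The members, roles and marker lists were chosen with earlier results of these data known. Every measured member was to be described by role, then for each daily step and genotype contrast those that passed, at most 5 and ranked by size, or the 3 with the smallest p, and for each list up to 4 genes with the largest change. Jph1, Cryab, Tpm1, Tpm3, Eno3, Tcf21 and Eya1 were named besides. The yolk sac and hepatocyte list was used only to describe single arrays by Afp, chiefly E10 p63-/- replicate 3.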

Additional observations from a re-analysis of the deposited data

How the results depend on the processing

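With 3 embryos a group, single arrays set several counts. The E10 to E13 counts stayed at 27 to 28 of 30 genes in p63+/- and at 27 in p63-/- when 1 array was left out, and the difference between genotypes of that change and the interaction stayed at 0. From E10 to E11 the count ranged from 0 to 2 in p63+/- (0 without E10 replicate 1 or 2 or E11 replicate 1 or 3, 2 without E11 replicate 2) and from 0 to 6 in p63-/- (0 without E11 replicate 1, 1 without E10 replicate 2 or 3 or E11 replicate 3). From E11 to E12 it ranged from 2 to 20 in p63+/- (9 and 3 without E11 replicates 1 and 2, 7 and 2 without E12 replicates 1 and 2) and from 5 to 22 in p63-/- (6 without E11 replicate 2, 11 and 5 without E12 replicates 1 and 2). From E12 to E13 it was 26 to 28 in p63+/- and 12 to 26 in p63-/- (12 without E12 replicate 3, 15 without E13 replicate 1). Between genotypes, leaving out 1 array gave 0 to 1 at E10 (Chrnb1, adjusted p = 0.038, without E10 p63-/- replicate 2), 0 at the other stages and 1 on average, where the adjusted p of Chrnb1 ran from 0.0013 to 0.0173.

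Quantile normalization without background correction gave 0 genes from E10 to E11 in p63+/- and 2 in p63-/-. The authors' values gave 0 on the genotype average, 0 and 1 from E10 to E11 in p63+/- and p63-/-, and 7 from E11 to E12 in p63+/-. Fitting only the arrays compared gave 1 between genotypes at E11, 0 from E10 to E11 in both genotypes, 0 from E11 to E12 and 7 from E12 to E13 in p63-/-. Array weights gave 1 at E11, 2 on average (Chrnb1 and Tpm2, the latter 0.20 with an adjusted p of 0.0235), and 3 from E10 to E11 in p63+/-. Leaving out the third E12 embryo of each genotype, chosen after seeing the data, gave 1 between genotypes at E10, 2 and 9 from E10 to E11 in p63+/- and p63-/-, and 15 from E12 to E13 in p63-/-. The difference of Smyd1 between E13 and E10, which passes nowhere, changed sign: to -0.16 in p63+/- with array weights, to -0.0871 there without the first E13 embryo of each genotype (chosen after seeing the data), to -0.0874 without E13 p63+/- replicate 1 (range without 1 array -0.0874 to 0.27), to -0.0841 without E10 p63+/- replicate 1, and to 0.0753 in p63-/- without E10 p63-/- replicate 2 (range -0.54 to 0.0753). The causes were not tested. Over all alternatives, 2598 of 2615 values for single genes kept direction and side of the threshold, 11 came to pass, 1 was lost and 5 changed sign. They belong to 75 results: the E13 minus E10 changes, and the 3 genes with the smallest p in each genotype comparison. Daily steps of single genes, whose counts moved most, were not among them. A filter on 12 arrays left Casq2, Cacng1 and Myoz2 out.

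Littermates were taken, but the labels do not say that a replicate number marks a litter. In 9 of 12 same-numbered pairs the deviations from the group means correlated above 0.1 (range 0.042 to 0.628), among them all pairs at E12 and E13, and 21 of 24 arrays correlated best with their own number, a hint from the data. With the number as a replicate block, 1 of the 30 genes passed between genotypes at E10, 1 at E11 and 1 at E12, Chrnb1 each time (adjusted p = 0.00343, 0.00524 and 0.046). Of all genes, 205, 97 and 49 passed at these stages in place of 101, 65 and 38.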
